A study of Mus musculus with 2 samples.

Results

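Calcineurin, the NFATc transcription factors and the Rcan proteins form a calcium signalling route that reaches the slow fibre genes of skeletal muscle. Described here are 9 genes of that route, chosen by symbol from the 55536 genes listed: the catalytic subunits Ppp3ca and Ppp3cb, the regulatory subunit Ppp3r1, the factors Nfatc1, Nfatc2, Nfatc3 and Nfatc4, and the regulators Rcan1 and Rcan2. Total RNA with ERCC spike-in RNA added was sequenced from gastrocnemius, a calf muscle built mostly of fast fibres, of male B6CASTF1/J mice aged 2 months, which are hybrids of the strains B6 and CAST. The study holds 1 group of 2 libraries, called replicate 1 and replicate 2, each from 300 ng of RNA, and no second condition. The labels list separate tissue samples under the same donor entry, so the spread between the libraries may be partly technical.

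Calcineurin is a phosphatase that calcium and calmodulin switch on. It removes phosphates from NFATc proteins in the cytoplasm, which then enter the nucleus and act with partner factors such as MEF2 and AP-1, while nuclear kinases add the phosphates back and send NFATc out again. In muscle the route is known for maintaining slow, oxidative fibres, which are active for long periods and hold calcium at a raised level. Rcan proteins bind calcineurin and restrain it, and the Rcan1 transcript that starts at exon 4 is itself a known NFAT target.

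Replicate 1 had 42724520 reads assigned to genes and replicate 2 had 42280091, so 3 reads, the limit that a count of 0 allows, correspond to 0.0702 and 0.071 CPM (counts per 1000000). Each library has 2 kinds of table of the same reads. The first tables give expected counts and TPM (a level per length of RNA, scaled to 1000000 per library), and the second give estimated counts and TPM per transcript, summed here to genes. Values are TPM of the first tables unless the second are named. All 10 skeletal muscle markers checked (among them Acta1, Ckm and Myh4) were at 1 TPM or more in both libraries, and summed to 88450 and 72040 TPM. Of 6 heart genes, Nppa, Nppb and Myl7 were at 0 in both. Tnni3 was at 0.16 and 0.12 TPM, Sln at 0.21 in both and Myl4 at 1.15 and 1.53.

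All 9 genes were detected in both libraries. The calcineurin subunits stood highest, the Rcan genes next and the NFATc factors lowest, with mean levels from 72.8 TPM for Ppp3cb down to 1.27 for Nfatc4. The order of the 9 was the same in both libraries and in both kinds of table. The ranges of neighbours in that order overlapped for 1 pair, Ppp3ca and Ppp3r1. With 2 libraries the order is a description, with no test. Every level was higher in the second tables, by 1.32 to 1.84 times over the 9 genes and the libraries.

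**Figure D1:**
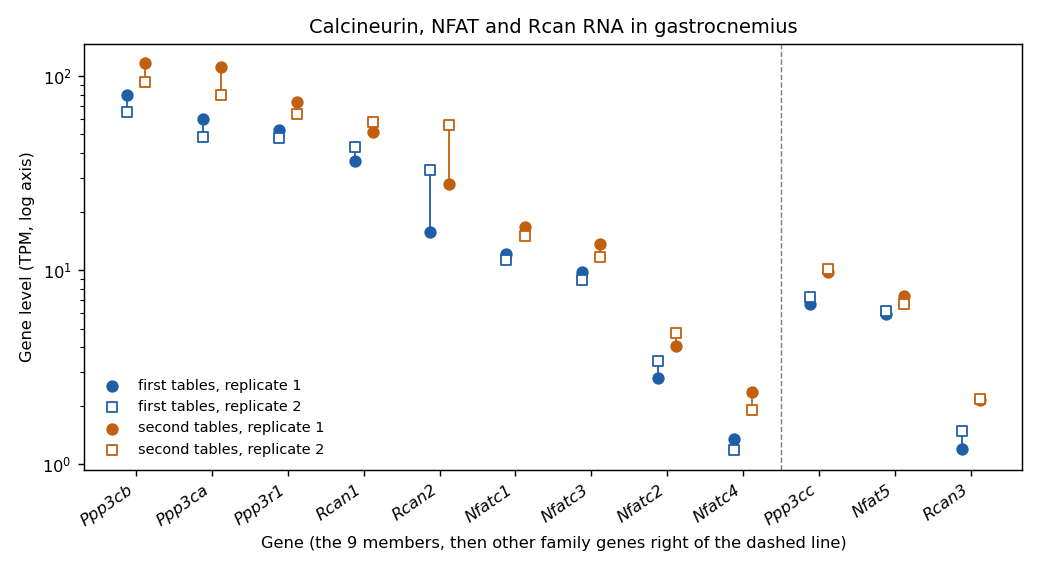
Levels of the 9 genes and of 3 relatives in TPM on a log axis, with filled circles for replicate 1 and open squares for replicate 2, in the first tables (blue) and the second tables (orange). The calcineurin subunits lie at the top and Nfatc4 at the bottom, and Rcan2 has the widest gap between libraries, 15.8 against 32.6 TPM in the first tables.

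The catalytic subunit is the phosphatase itself. Ppp3cb, the beta form (chromosome 14, 20499364 to 20546573, minus strand, mm10), was at 80.2 TPM in replicate 1 and 65.5 in replicate 2, from 8180 and 6872 reads. Its mean was 72.8 ± 10.4 TPM (SD, n = 2), and it was at or above 97.2% of protein-coding genes in replicate 1 and 96.7% in replicate 2. Ppp3ca, the alpha form (chromosome 3, 136670124 to 136937727, plus strand), was at 60.3 and 48.8 TPM, from 6862 and 5705 reads, with a mean of 54.5 ± 8.14 (SD, n = 2). Both genes were higher in replicate 1, and the ranges of the pair did not overlap. Ppp3cc, the gamma form and no member of the 9, was far lower at 6.65 and 7.23 TPM.

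Ppp3cb supplied 54.5% and 53.9% of the summed TPM of the catalytic genes in the libraries, Ppp3ca 40.99% and 40.14%, and Ppp3cc 4.52% and 5.95%. For Ppp3ca and Ppp3cb the shares were steadier between libraries than the levels, while for Ppp3cc the level was the steadier. In the second tables the alpha and beta forms stood closer, at 46.8% and 43.7% for Ppp3ca against 49.1% and 50.8% for Ppp3cb.

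Ppp3r1 encodes calcineurin B, the calcium-binding regulatory subunit that both catalytic forms need. The gene (chromosome 11, 17159263 to 17200375, plus strand) was at 53.0 and 48.0 TPM, from 4985 and 4517 reads, with a mean of 50.5 ± 3.56 (SD, n = 2). Its paralogue Ppp3r2 had 0 reads in replicate 1 and 1 read in replicate 2, at or under the level that 3 reads give. Summed catalytic TPM was thus 2.78 times the Ppp3r1 level in replicate 1 and 2.53 times in replicate 2. Wdr92, which overlaps Ppp3r1 on the same strand, had 149 and 166 reads. The authors' posterior standard deviation of the count was 3.29 and 4.12 reads for Ppp3r1 and 0 for the other 8 genes.

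Both catalytic genes carry an alternative coding exon of 30 bases toward the end of the protein. It lies at chr3:136932011-136932040 in Ppp3ca (plus strand) and at chr14:20503247-20503276 in Ppp3cb (minus strand), in mm10. The exons are shown because the genes share nearly the whole stretch and differ in how much of their RNA holds it. Capitals mark the 26 of 30 bases that are identical at the same position, and both are read 5′ to 3′ along the transcript from GENCODE M21.
Ppp3ca exon: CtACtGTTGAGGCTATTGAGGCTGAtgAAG
Ppp3cb exon: CcACaGTTGAGGCTATTGAGGCTGAaaAAG

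In Ppp3ca, the transcript with this exon (Ppp3ca-201, 521 residues) and the one without it (Ppp3ca-202, 511 residues) were close to equal. Ppp3ca-201 was at 30.4 and 22.6 TPM and Ppp3ca-202 at 28.9 and 25.3. Among these 2 transcripts the one with the exon held 51.3% and 47.2% in the first tables and 49.5% and 48.4% in the second. Both kinds of table thus gave nearly even use of the exon. They differed on Ppp3ca-204, a 713-base transcript without a coding sequence, which was at 0 and 0.34 TPM in the first tables and at 22.6 and 8.38 TPM, or 20.4% and 10.5% of the gene, in the second.

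In Ppp3cb the transcripts with the exon prevailed in both kinds of table, but not to the same degree. Ppp3cb-205 (524 residues) held 62.9% and 59.8% of the gene's TPM, and Ppp3cb-202 (525 residues) 16.1% and 18.1%. Ppp3cb-201, which lacks the exon (515 residues), held 8.86% and 11.9%. In the second tables Ppp3cb-205 held 39.4% and 42.3% and Ppp3cb-201 36.1% and 32.9%. Among transcripts known to hold or lack the exon, 89.9% and 86.7% held it in the first tables and 59.8% and 63.2% in the second. The gap between the kinds of table was thus far wider than that between the libraries.

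Ppp3cb-206 ends inside an intron and encodes 497 residues, so that the usual end of the protein is replaced. It was at 1.75 and 2.04 TPM, or 2.18% and 3.11% of the gene, and at 2.28% and 3.23% in the second tables, so both kinds of table gave it a small share of like size. Ppp3r1 was simpler: Ppp3r1-201 held 98.9% and 99.0% of its TPM.

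NFATc factors carry the signal into the nucleus. Nfatc1 (chromosome 18) was the most abundant, at 12.1 and 11.3 TPM from 1868 and 1743 reads, with a mean of 11.7 ± 0.608 (SD, n = 2). Nfatc3 (chromosome 8, 106058840 to 106130537, plus strand) followed at 9.77 and 8.84 TPM from 1695 and 1578 reads, with a mean of 9.31 ± 0.658 (SD, n = 2). Nfatc1 lay above Nfatc3 in each library, with no overlap of their ranges.

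Nfatc2 (chromosome 2, 168476410 to 168601657, minus strand), best known from T cells, was at 2.78 and 3.41 TPM from 378 and 481 reads. Nfatc4 (chromosome 14, 55823144 to 55833943, plus strand) was lowest, at 1.35 and 1.18 TPM from 139 and 133 reads. These levels of Nfatc4 lay below the authors' own intervals, 1.51 to 2.86 TPM in replicate 1 and 1.33 to 2.34 in replicate 2. The authors' posterior mean was higher, at 2.13 and 1.80 TPM, so the level of Nfatc4 depended on the score used. Nfatc2 and Nfatc4 were both above the limit of 3 reads by a wide margin. In the first tables all 8 T and NK cell markers were under 1 TPM, and their sum was 0.34 and 0.11 TPM. Cd3d, Cd3g and Ncr1 were at 0 there in both libraries. In the second tables Cd3d and Cd3g were not at 0, and Cd8a had enough reads to be tested. Whether T cells had a part in the Nfatc2 RNA was not tested. Nfat5, a relative that responds to osmotic stress and lacks the calcineurin docking region, was at 5.91 and 6.15 TPM.

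Within the NFATc family, Nfatc1 held 46.6% and 45.7% of the summed TPM, Nfatc3 37.5% and 35.8%, Nfatc2 10.7% and 13.8%, and Nfatc4 5.18% and 4.78%. The second tables gave Nfatc1 45.4% and 44.9%, so the order of the family did not depend on the kind of table. Catalytic TPM exceeded NFATc TPM by 5.65 times in replicate 1 and 4.92 times in replicate 2.

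Nfatc1 is known for a short form that an upstream start and an early end produce, and for longer forms with a second trans-activating tail. Transcripts ending early held 20.8% and 20.6% of the TPM in the first tables and 23.1% and 21.8% in the second. Those with the upstream start held 49.3% and 41.3% in the first and 51.6% and 42.1% in the second. The start and the end of Nfatc1 RNA were therefore read alike by both kinds of table. Single transcripts were not: the early end belonged mainly to Nfatc1-201 (703 residues, downstream start) at 20.8% and 16.1% in the first tables, and to Nfatc1-206 (717 residues, upstream start) at 22.4% and 21.8% in the second. Of the transcripts ending late, Nfatc1-202 (827 residues) held 49.3% and 36.9%, Nfatc1-203 (925 residues) 29.98% and 42.55%, and Nfatc1-205 (813 residues) 0% in both, against 14.1% and 12.5% for Nfatc1-205 in the second tables.

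Nfatc3 RNA came mostly from the downstream start, with 77.4% and 84.7% in the first tables and 67.8% and 76.0% in the second. Its main transcript Nfatc3-201 (1076 residues) was at 6.83 and 6.74 TPM, and Nfatc3-202 (1060 residues), from the upstream start, at 1.80 and 1.12. Nfatc4 was divided between Nfatc4-201 (901 residues) at 0.50 and 0.44 TPM and Nfatc4-202 (890 residues) at 0.51 and 0.59. In the second tables Nfatc4-201 held 43.2% and 44.8% of the gene, against 37.0% and 37.3% in the first. Nfatc4-202 held 15.4% and 22.5% in the second, against 37.8% and 50.0% in the first. Nfatc4-203, a retained-intron transcript, took 31.9% and 22.9% in the second, against 6.67% and 5.09% in the first.

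Nfatc2 RNA was spread over 9 annotated transcripts at low depth. The largest share in any library was 25.5% in the first tables, for Nfatc2-201 (673 residues) in replicate 2, where replicate 1 had 13.7%, and 30.7% in the second, for Nfatc2-204 (923 residues) in replicate 2, where replicate 1 had 24.0%. Nfatc2-202 (927 residues) held 17.0% and 19.7% in the first tables. Nfatc2-203, Nfatc2-208 and Nfatc2-209 each held over 10% in replicate 1 or replicate 2 and 0 in the other library of the first tables. Nfatc2-205 was at 0 in both first tables and at 11.6% and 21.8% in the second. The retained-intron transcripts Nfatc2-206 and Nfatc2-207 held 24.2% and 6.75%, and 7.22% and 13.5%. No transcript of Nfatc2 stood out in both libraries and both kinds of table.

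Rcan1 and Rcan2 encode calcineurin regulators that bind the catalytic subunit. Rcan1 (chromosome 16, 92391953 to 92470867, minus strand) was at 36.6 and 43.1 TPM, from 2659 and 3130 reads, with a mean of 39.8 ± 4.63 (SD, n = 2). Rcan2 (chromosome 17, 43801351 to 44039516, plus strand) was at 15.8 and 32.6 TPM, from 1393 and 2982 reads, with a mean of 24.2 ± 11.9 (SD, n = 2). Both were higher in replicate 2, Rcan2 by much the wider margin, and Rcan1 remained above Rcan2 in each library. Rcan3, the remaining relative, was at 1.20 and 1.49 TPM.

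Of the summed Rcan TPM, Rcan1 held 68.3% in replicate 1 and 55.8% in replicate 2, and Rcan2 29.5% and 42.3%. Rcan1 exceeded Rcan2 by 2.32 times in replicate 1 and 1.32 times in replicate 2, and by 1.87 and 1.03 times in the second tables. Summed Rcan TPM was 0.364 of the catalytic TPM in replicate 1 and 0.636 in replicate 2, against 0.344 and 0.634 in the second tables. The ratio of regulator RNA to phosphatase RNA therefore differed between the libraries by a similar amount in both kinds of table.

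Rcan1 has alternative first exons spliced to the same following exon. The form from exon 4 (Rcan1-201, 198 residues) is the one known to be induced by calcineurin and NFAT, and the form from the distal start (Rcan1-202, 251 residues) is known as the more constant one. The junctions of these 2 forms are shown because reads across them, and reads in the first exons, are what tells the forms apart. Capitals mark the last 30 bases of each first exon (chr16:92399896-92400077 for Rcan1-201 and chr16:92465833-92466146 for Rcan1-202, minus strand, mm10), all coding, and lower case the shared next exon (chr16:92397263-92397436), from the GENCODE M21 transcripts, 5′ to 3′.
Rcan1-201: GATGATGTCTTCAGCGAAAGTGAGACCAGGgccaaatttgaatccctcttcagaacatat
Rcan1-202: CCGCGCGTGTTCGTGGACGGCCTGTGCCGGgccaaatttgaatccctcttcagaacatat

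The 2 kinds of table assigned Rcan1 RNA to opposite starts. In the first tables Rcan1-201 was at 27.7 and 35.1 TPM, and transcripts from exon 4 held 76.2% and 81.5% of the gene. In the second tables Rcan1-201 was at 0.294 TPM in replicate 1 and close to 0 in replicate 2. There Rcan1-202 held 72.5% and 67.7%, against 23.1% and 18.5% in the first tables. Rcan1-203, from a start between the others and with a coding sequence of 118 residues, took 25.5% and 32.3% in the second tables and 0.793% and 0% in the first.

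The authors' own interval for Rcan1-201 in the first tables ran from 25.1 to 29.1 TPM in replicate 1 and from 31.6 to 36.1 in replicate 2, which does not reach the values of the second tables. The first exon makes up 182 of the 2190 bases of Rcan1-201, 314 of 2324 in Rcan1-202 and 218 of 2222 in Rcan1-203. The remaining 2008, 2010 and 2004 bases are nearly the same. Gene-level reads hardly differed, with 2659 and 3130 in the first tables and 2816 and 3309 in the second. Which kind of table lies nearer the RNA was not tested.

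The windows of 250 bases before the RefSeq starts of the exon 4 form and of the distal form are shown because the exon 4 start is the one known for NFAT control. They are from RefSeq on GRCm38.p6, minus strand, 5′ to 3′, at chr16:92400079-92400328 and chr16:92466170-92466419. Capitals mark the NFAT core GGAAA on either strand, which reads TTTCC on the other one.
Exon 4 window: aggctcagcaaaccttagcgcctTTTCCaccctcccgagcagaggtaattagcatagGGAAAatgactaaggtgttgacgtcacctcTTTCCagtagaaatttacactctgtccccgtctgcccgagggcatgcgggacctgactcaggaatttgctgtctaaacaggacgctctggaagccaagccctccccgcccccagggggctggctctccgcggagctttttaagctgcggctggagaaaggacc
Distal window: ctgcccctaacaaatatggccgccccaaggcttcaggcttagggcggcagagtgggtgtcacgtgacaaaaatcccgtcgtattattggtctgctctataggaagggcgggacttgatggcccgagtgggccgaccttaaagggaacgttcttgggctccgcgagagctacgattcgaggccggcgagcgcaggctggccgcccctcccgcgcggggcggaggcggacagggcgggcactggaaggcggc

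The exon 4 window holds 3 matches to GGAAA and 1 match to the AP-1 motif TGACTCA, and the distal window holds 0 of each. Of 32851 RefSeq windows of the same length, 6.39% held 3 or more GGAAA matches, 55.6% at least 1, and 4.46% at least 1 TGACTCA. The motifs were searched on both strands, and their letters cannot overlap. Windows were read for 7 of the 9 genes, 12 in all. Nfatc4 and Ppp3cb, with 1 window each, also held 3 GGAAA matches, Nfatc2 1 and 3 in its pair of windows, Nfatc3 1 and 0, Ppp3r1 0, and Rcan2 2, 0 and 0, with 1 TGACTCA in the last. A match is a stretch of letters and not a measured binding site.

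Rcan2 transcripts came mostly from the distal starts in every table: 90.9% and 91.0% in the first and 89.8% and 85.3% in the second. Rcan2-202 (243 residues) was at 8.56 and 16.7 TPM, Rcan2-206 (243 residues) at 3.99 and 9.85, and Rcan2-204 (228 residues) at 1.81 and 3.14. All 3 were higher in replicate 2, so the difference in the gene's level was spread over its main transcripts. The division among these 3 differed between the kinds of table. Rcan2-204 held 11.5% and 9.62% of the gene in the first tables and 34.8% and 28.4% in the second. Rcan2-206 held 25.3% and 30.2% in the first and 9.34% and 11.6% in the second. The remainder differed as well. Proximal starts held 0.697% and 3.22% in the first tables and 10.2% and 14.7% in the second, and an internal fragment (Rcan2-207) 8.36% and 5.79% in the first and 0% in the second. Rcan2-203, from the proximal starts, reached 6.77% and 12.4% in the second tables and at most 0.398% in the first.

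**Figure D2:**
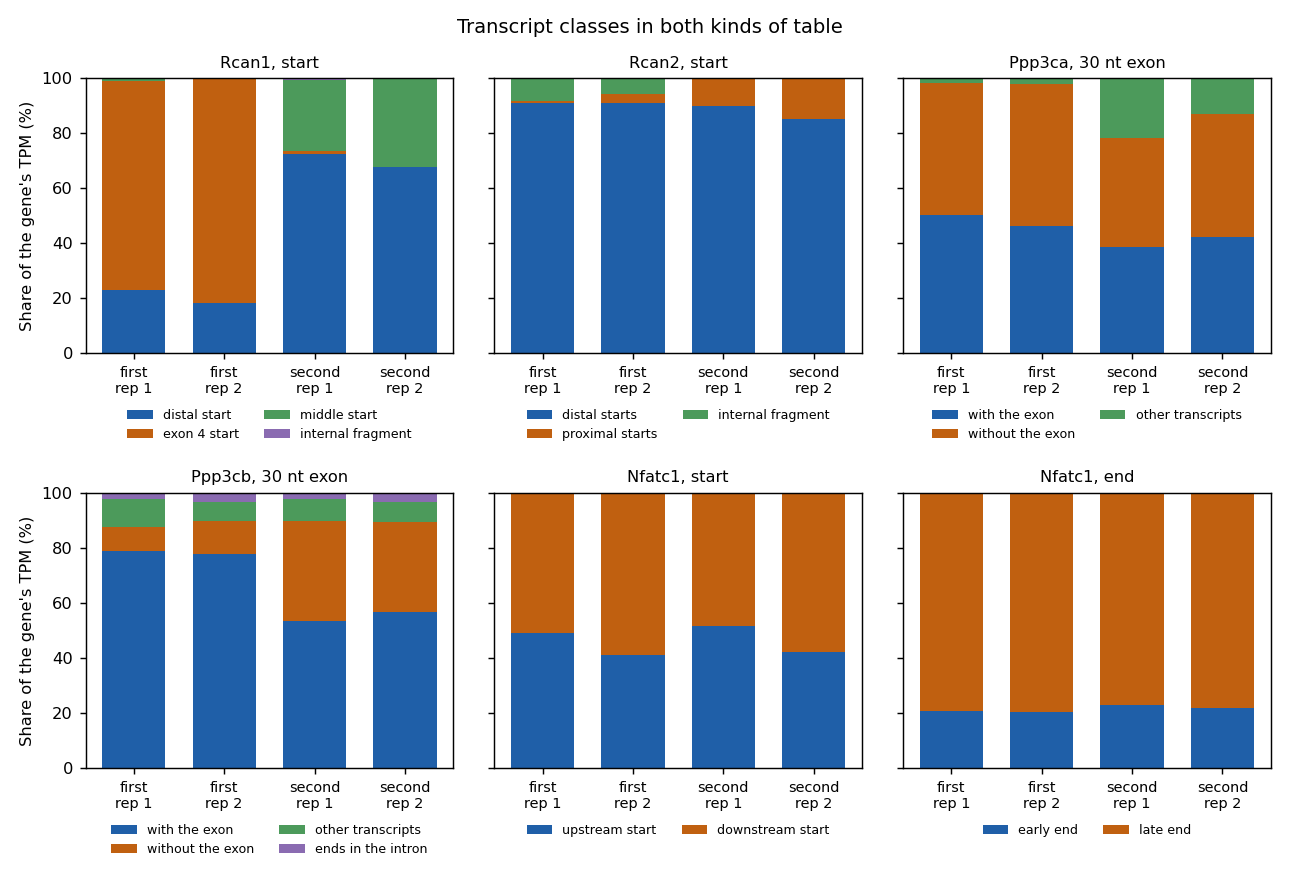
Share of each gene's TPM (%) by class of transcript, in bars for the first and second tables of replicate 1 and replicate 2, with colours as in the key under each panel. Rcan1 starts and the Ppp3cb exon differ between the kinds of table (76.2% against 1.25% exon 4 start and 79.0% against 53.6% with the exon, in replicate 1), while both Nfatc1 panels look alike. Distal starts prevail for Rcan2 in every bar, but its proximal starts hold 0.697% against 10.2% in replicate 1.

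With 1 group, the remaining comparison is that of the libraries with each other. It asks whether a gene's reads differ by more than counting error, has no replicate check, and says nothing about a condition. Counts were scaled by TMM, and a ratio divides replicate 2 by replicate 1. The test was exact, binomial and two-sided, run on every gene with 20 or more reads over both libraries, with Benjamini-Hochberg adjustment across these 14827 genes. Intervals are exact at 95% and cover counting error only.

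Of the 9 genes, 1 (Rcan2) passed both at an adjusted p under 0.05 and at a fold of 2 or more, where 3.07% of all genes tested did, and 1.81% in the direction of replicate 2. The second tables also called Rcan2 alone, against 2.68% of all genes, and 1.63% toward replicate 2. At an adjusted p under 0.05 alone, 6 of 9 passed, where 25.8% of all genes did, and in the second tables' counts 5 of 9, where 24.5% did. The test passes small folds where reads are many, such as 1.07-fold for Ppp3r1. No share was taken over genes of like depth, so these counts do not show an excess for the route. Higher in replicate 2 were 3 (Rcan1, Rcan2 and Nfatc2), against 14.3% of all genes, and higher in replicate 1 were 3 (Ppp3ca, Ppp3cb and Ppp3r1), against 11.5%. The median log2 ratio of the 9 was -0.05, and that of all genes tested 0.00.

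Rcan2 was 2.21-fold higher in replicate 2, a log2 ratio of 1.15 (95% interval 1.05 to 1.24, adjusted p = 3.69e-140, exact binomial test). Of the 10054 genes with 200 or more reads over both libraries, 0.776% had a ratio at least as high. The second tables gave 1.16 (1.07 to 1.25). Rcan1 was 1.22-fold higher in replicate 2, at 0.28 (0.21 to 0.36, adjusted p = 1.45e-12), and a ratio at least this high was seen in 13.0% of those genes. The intervals of Rcan1 and Rcan2 did not overlap. Rcan3 gave 0.08 (-0.29 to 0.45, adjusted p = 0.864).

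The subunits of calcineurin differed in the other direction and by little. Ppp3ca was 1.16-fold higher in replicate 1, with a log2 ratio of -0.22 (-0.27 to -0.17, adjusted p = 6.85e-16), and Ppp3cb 1.15-fold higher there, at -0.20 (-0.25 to -0.16, adjusted p = 1.75e-16). These ratios are common ones: 12.4% and 13.9% of the genes with at least 200 reads had one at least as low. Ppp3r1 was 1.07-fold higher in replicate 1, at -0.09 (-0.15 to -0.04, adjusted p = 0.00856). That call was lost with the second tables (-0.07, adjusted p = 0.0632) and with scaling by the spike-in RNAs (-0.04). Ppp3cc gave 0.17 (-0.03 to 0.36, adjusted p = 0.249).

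Of the factors, Nfatc2 was 1.32-fold higher in replicate 2, at a log2 ratio of 0.40 (0.20 to 0.59, adjusted p = 0.000492), and 0.40 in the second tables. Nfatc1 gave -0.05 (-0.15 to 0.04, adjusted p = 0.526), Nfatc3 -0.05 (-0.15 to 0.05, adjusted p = 0.518) and Nfatc4 -0.01 (-0.37 to 0.34, adjusted p = 1.0). For these 3 no difference was detectable at this depth, and the interval of Nfatc4 was the widest of the 9. With scaling by the spike-in RNAs, Nfatc1 turned to 0.00 and Nfatc4 to 0.04.

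**Figure D3:**
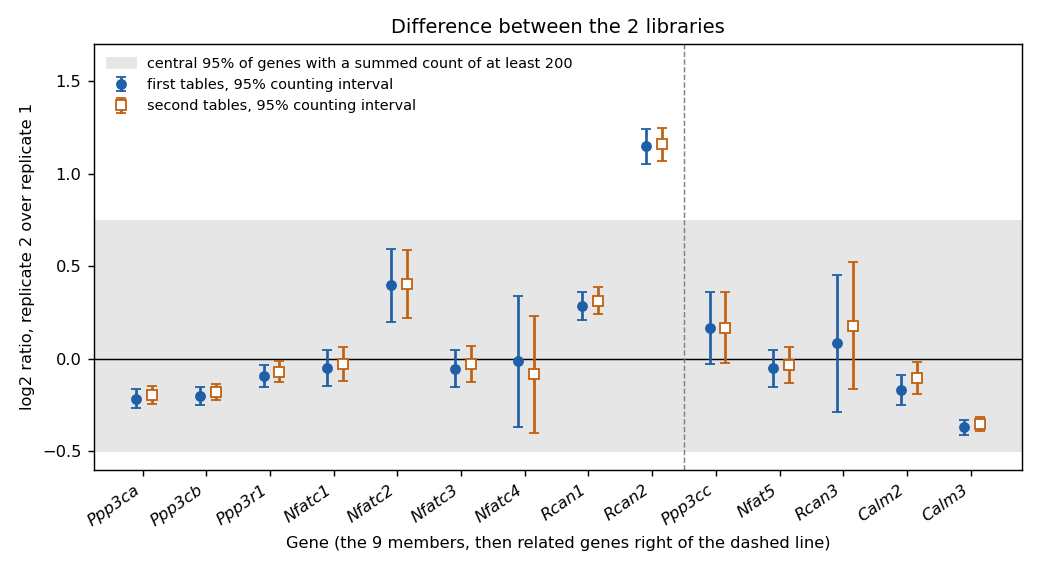
Log2 ratio of replicate 2 over replicate 1 for the 9 genes and, right of the dashed line, 5 related genes, with 95% counting intervals, in the first tables (blue circles) and second tables (orange squares). The grey band holds the central 95% of genes with 200 or more reads, from -0.50 to 0.74, and Rcan2 at 1.15 lies above it while the other 8 genes lie inside.

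Slow fibre genes and most tendon markers were, like Rcan2, higher in replicate 2. With 2 libraries no likeness of pattern between genes can be measured. All 14 slow fibre genes listed were higher in replicate 2, 12 of them past 2-fold. Of all genes tested, 14.3% were higher in replicate 2 at an adjusted p under 0.05, and 1.81% were also past 2-fold. The slow fibre list had a median log2 ratio of 1.33 and a summed level of 3071 TPM in replicate 1 and 6775 in replicate 2. Myh7, the slow myosin heavy chain, was at 204 and 529 TPM (log2 ratio 1.34), the slow troponin gene Tnni1 at 72.0 and 198 (1.51), and Myl2, the slow regulatory light chain, at 304 and 800 (1.45). The oxygen store Mb was at 1212 and 2431 TPM (1.07), Mybpc1 at 294 and 480 (0.75), and Pln, the brake on the slow calcium pump, at 2.97 and 20.02 (2.36). Of 7 tendon markers, 6 were higher in replicate 2. Their median was 0.88 and their summed level 56.9 and 93.4 TPM. Mkx, the tendon gene that did not pass, was at 0.94 and 1.25 TPM, and the others were above 1 TPM in both libraries. Their part in the Rcan2 result was not tested, and in bulk tissue fewer cells of a type and less RNA per cell cannot be told apart.

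Fast fibre genes were, like the calcineurin subunits, mostly higher in replicate 1. Of 12, 11 were higher in replicate 1 at an adjusted p under 0.05, where 11.5% of all genes tested were. The fast fibre genes have many reads, at which the test passes small folds, and no share was taken over genes of like depth. The list had a median of -0.31 and a summed level of 88370 and 69290 TPM. Tnnt3 was at 14906 and 11890 TPM (-0.28), Mylpf at 12950 and 9798 (-0.34), Myh4 at 11267 and 8431 (-0.37) and Mybpc2 at 1949 and 1316 (-0.52). Myh1, the myosin heavy chain of type IIx fibres, was the exception at 575 and 1076 TPM (0.95). Their part in the results on Ppp3ca and Ppp3cb was not tested either.

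Upstream of calcineurin, the calmodulin genes Calm2 and Calm3, which encode the same protein, were higher in replicate 1. Calm3 was at 157 and 115 TPM (log2 ratio -0.37) and Calm2 at 71.1 and 59.4 (-0.17, adjusted p = 0.000333). The call on Calm2 was lost with the second tables (adjusted p = 0.0612). Of 16 calcium entry and CaM kinase genes, 13 were tested. Of these, 1 was higher in replicate 2 and 4 in replicate 1, against 14.3% and 11.5% of all genes tested. The other 8 did not pass, and the list's median was -0.08. Camk2a was at 177 and 126 TPM (-0.41) and Camk2g at 63.8 and 53.8 (-0.23). Stim1, the calcium sensor of the sarcoplasmic reticulum, was the 1 higher in replicate 2, at 61.1 and 64.5 TPM (0.17, adjusted p = 2.6e-11). The channel gene Orai2 at 0.17 and 0.18 TPM (-0.55, adjusted p = 0.536) and the kinase gene Camkk1 at 0.17 and 0.11 (-0.48, adjusted p = 0.666) were near the floor of the test.

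Proteins that hold or restrain calcineurin were divided. Of 18 binding and scaffold genes, 6 were higher in replicate 2, 5 in replicate 1 and 7 did not pass, with a median of 0.05. The calsarcins tie calcineurin to the Z-disc. Myoz1, the fast fibre form, was the most abundant of the list at 1482 and 1165 TPM (-0.31), and Myoz2, the slow fibre form, was at 110 and 246 (1.21). Myoz2 is also on the slow fibre list. It was the 1 gene of the binding list that passed with a fold of at least 2, where 3.07% of all genes tested did. The scaffold gene Homer2 was at 15.7 and 27.9 TPM (0.82, adjusted p = 4.47e-109) and the small heat-shock gene Hspb6 at 340 and 572 (0.80).

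Kinases that return NFATc to the cytoplasm, with genes of nuclear transport, numbered 13. Of these, 0 were higher in replicate 2 and 4 in replicate 1, against 14.3% and 11.5% of all genes tested. The other 9 did not pass, and the list's median was -0.05. Csnk1a1 was at 90.0 and 76.6 TPM (-0.12, adjusted p = 1.2e-06), Dyrk2 at 21.6 and 13.9 (-0.42, adjusted p = 1.08e-23) and Mapk9 at 21.3 and 19.3 (-0.13, adjusted p = 0.0126). Mapk14 at 39.0 and 36.1 TPM (-0.05, adjusted p = 0.276) and Dyrk1a at 38.4 and 37.8 (-0.06, adjusted p = 0.0877) did not pass. With spike-in scaling the counts were 1 higher in replicate 2 and 2 in replicate 1.

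Partner factors numbered 13, of which 10 were tested. Of these, 2 were higher in replicate 2 and 4 in replicate 1, against 14.3% and 11.5% of all genes tested. The other 4 did not pass, and the list's median was -0.05. With spike-in scaling the counts became 4 and 3, so the balance of this list depended on the scaling. Mef2c was at 139 and 135 TPM (0.00, adjusted p = 0.999), Mef2d at 72.1 and 70.6 (0.01, adjusted p = 0.931) and Mef2a at 36.2 and 31.9 (-0.14, adjusted p = 1.76e-05). The AP-1 genes parted: Jun was at 16.1 and 20.4 TPM (0.39, adjusted p = 8.36e-16), and Fos at 3.42 and 1.71 (-0.84, adjusted p = 2.14e-05). Gata4 was at 0 in both libraries.

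**Figure D4:**
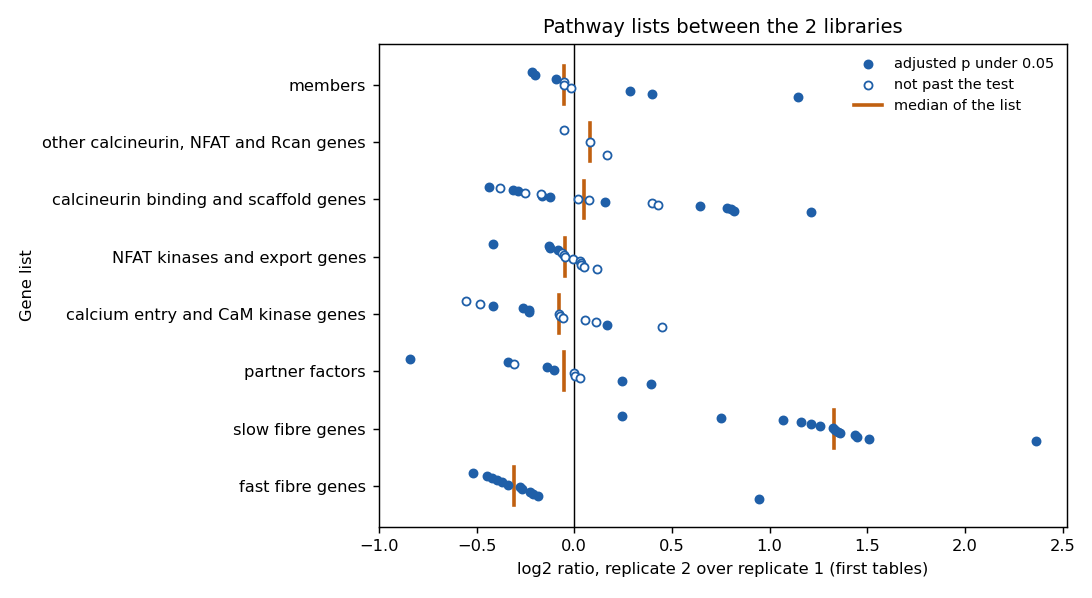
Log2 ratio of replicate 2 over replicate 1 (horizontal axis, first tables) for each tested gene of the 9 and of 7 pathway lists, filled where the adjusted p was under 0.05, with an orange bar at the median of each list. The slow fibre list lies to the right (median 1.33) and the fast fibre list to the left (-0.31), and the binding, kinase, calcium entry and partner factor lists have medians from -0.08 to 0.05.

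Markers of other cell types were checked by list. Summed levels in replicate 1 and replicate 2 were 73.0 and 72.3 TPM for endothelial, 150 and 138 for mural, 264 and 276 for fibro-adipogenic, 25.49 and 22.03 for macrophage, 56.1 and 66.4 for adipocyte, 23.8 and 19.0 for Schwann, 11.6 and 10.2 for satellite cell and 237 and 216 for erythroid genes. The near-level endothelial sum hid shifts in both directions, and that list's median log2 ratio was 0.21. At an adjusted p under 0.05, 5 of its 8 genes passed toward replicate 2, among them Emcn (0.70) and Kdr (0.47). Egfl7 alone passed toward replicate 1, at 21.04 and 14.95 TPM (-0.33), and 2 did not pass. Of all genes tested, 14.3% passed toward replicate 2 and 11.5% toward replicate 1. Within some lists a few genes carried the sum. Of the adipocyte genes, Fabp4 was at 55.0 and 65.8 TPM and the other 4 were under 1 TPM. The list's median log2 ratio was -0.85, but of the 4 genes tested only Fabp4 passed, higher in replicate 2 (0.29). The other 3 tested had few reads and did not pass. Of the 8 fibro-adipogenic genes, 2 were higher in replicate 2 (Col1a1 and Col1a2) and 5 in replicate 1, against 14.3% and 11.5% of all genes tested. The remaining 1 did not pass, and the list's median was -0.33. Pi16, of that list, passed with a fold of at least 2, at 8.58 and 3.24 TPM (-1.20, adjusted p = 1.09e-29, exact binomial test). B cell genes summed to 0.15 and 0.24 TPM. The nerve gene Tubb3 was at 0 in both libraries. Antisense neighbours of the 9 genes were at 9 reads or fewer, the most being 1810062O18Rik beside Ppp3cb with 9 and 4.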

How the data were processed

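Total RNA of 2 gastrocnemius libraries of 1 group was analysed from gene and transcript tables. The expected counts (first tables) and estimated counts (second tables) deposited by the authors are reads per gene or transcript, and TPM values deposited by the authors are per length and scaled to 1000000. Posterior means, standard deviations and interval bounds are taken as the authors' deposited scores, and no source used here gives the level of that interval. Per the notes deposited with the samples, all tables use mm10 and GENCODE M21. No source used here names the programs or says whether counting used strand. Reads of CAST alleles met a B6-type reference and may match less well.

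Counts were rounded, scaled by TMM (edgeR 4.0.16, R 4.3.3) and tested per gene by an exact central two-sided conditional binomial test (scipy 1.17.1) with Benjamini-Hochberg adjustment over all genes with 20 or more reads in sum, with 0.5 added for ratios. The test was checked on simulated data. Intervals are Clopper-Pearson at 95%. Entries naming no gene, mainly spike-in RNAs with 201044 and 187580 reads, were left out of library sizes and tests. Named are the 9 genes, their transcripts with at least 10% of a gene's TPM, 4 relatives, and of each other list the 3 most abundant genes and the 2 with the largest absolute ratio, with Myh7, Tnni1 and Myl2. Members and lists were chosen with earlier results of these data known, and transcript classes after transcript values were seen. Alternatives were other scalings, count filters, tables and leaving out each library. Some listed genes are not reported here. Promoter windows were read for 7 of the 9 genes. Any on chromosome 18, where Nfatc1 lies, were left out, and none was given for Ppp3ca.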

Additional observations from a re-analysis of the deposited data

How the results depend on the processing

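No paired analysis was possible because the study holds 1 group. Rcan2 passed with a fold of at least 2 under all 6 other scalings, filters and tables run. With an adjusted p under 0.05 alone, 6 of the 9 genes passed, where 25.8% of all genes tested did. Of 92 pathway genes, slow and fast fibre genes included, 12 passed with a fold of at least 2, where 3.07% of all genes tested did. All 12 were on the slow fibre list, with Myoz2 also on the binding list, and no other pathway list had such a gene. The pathway genes passing numbered 12 also with the second tables and with spike-in scaling. Directions of the 9 ratios were kept, except that spike-in scaling turned Nfatc1 to 0.000111 and Nfatc4 to 0.0366. The summed level of the 9 genes, 267.3 TPM, was 399.8 in the second tables and 572.1 over protein-coding genes alone (262.7 to 271.8 with each library left out). The share of Ppp3cb, 54.2%, was 49.95% in the second tables and 52.84% from counts (53.91 to 54.49 by library), and that of Nfatc1, 46.14%, was 45.11% and 45.04% (45.65 to 46.62). Rcan1 held 62.04% (55.81 to 68.27). With the second tables, Ppp3ca RNA with the exon went from 48.35% to 40.5% (46.26 to 50.44), Ppp3cb from 78.42% to 55.13% (77.88 to 78.95), and the exon 4 start of Rcan1 from 78.84% to 0.6251% (76.15 to 81.54). The causes were not tested. Depth limits Nfatc2 and Nfatc4 most, at 378 to 481 and 133 to 139 reads.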
